A study of Homo sapiens with 7 samples.

Results

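The 9 genes described here are those of the epithelial-mesenchymal switch and its cadherins: the transcription factors SNAI1, SNAI2, ZEB1, ZEB2 and TWIST1, the cadherins CDH1 and CDH2, and the mesenchymal proteins VIM and FN1. They were taken by name, and all 9 were found among 19775 genes with a probe set (a group of short DNA probes for 1 transcript) of their own. They were read by 25 of the 54675 probe sets on the array. Each gene is given by its brightest probe set, and the others serve as a check.

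The cells were HSC-3, an established human cell line derived from a squamous carcinoma of the tongue. They were heated for 90 min at 44 °C or at 42 °C, and RNA was taken at the end of heating (0 h) or after 6 h or 12 h back at 37 °C. Unheated HSC-3 cells at 37 °C were the control. Each of the 7 conditions had 1 Affymetrix whole-genome array, so a difference is always between 2 single arrays and carries no replicate check.

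Epithelial cells adhere to each other through E-cadherin, the product of CDH1. In the epithelial-mesenchymal transition, factors of the SNAIL, ZEB and TWIST families bind E-box motifs and repress CDH1. Vimentin, fibronectin and N-cadherin are often gained. In oral squamous carcinoma this switch is studied in relation to invasion, and carcinoma cells often hold epithelial and mesenchymal markers together.

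Values are the deposited intensities on a linear scale. Intensities below 21.35, the median of all values on the 7 arrays, were treated as a floor, and where 1 array of a comparison lies below it, the fold is a lower bound, written "at least". The arrays differed in overall level: over probe sets with no value under the floor, the median log2 difference from control was 0.40 at 44 °C, 0 h, -0.07 at 6 h and -0.35 at 12 h. At 42 °C it was -0.13 at 0 h, 0.24 at 6 h and 0.16 at 12 h. The words rose and fell are therefore kept for differences of 2-fold (1 log2 unit) or more that held on the deposited values, on quantile-normalized values and with each array shifted by that median. The squamous epithelial markers fit the label of the cells, since all 6 with a probe set of their own (KRT5, KRT14, SFN, EPCAM, CDH3 and DSG3) lay above the floor on every array. The endothelial markers CDH5, VWF, KDR and TEK, the leukocyte marker PTPRC and the fibroblast markers LUM, PDGFRA and POSTN were below it on every array, while endothelial PECAM1 and fibroblast COL1A1 were above it throughout. The other 4 leukocyte markers with a probe set reached it on some arrays, CSF1R on 6, CD14 on 4, CD3D on 3 and MS4A1 on 1, with no value above 59.9. CD14 passed the 2-fold rule at 44 °C, 12 h, at 43.5 against 1.92 in the control. Of the other fibroblast markers, COL1A2 and DCN reached the floor on 2 arrays each and COL3A1 and PDGFRB on 1 each. In RNA from whole cultures, fewer cells that express a gene and less RNA per cell cannot be told apart.

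The regulatory sequence next to the start site is shown for FN1 and VIM, the mesenchymal pair with the brightest signal, of which only FN1 passed 2-fold by its brightest probe set. RefSeq promoters (GRCh38.p14) matched 5 of the 9 genes: FN1, VIM, CDH2, ZEB1 and ZEB2. SNAI1, SNAI2, TWIST1 and CDH1 had none in the table used. The 250 bases before the start site are given 5′ to 3′ on the strand of the gene, for FN1 at chr2:215436069-215436318 (minus strand) and for VIM at chr10:17227991-17228240 (plus strand). Capitals mark the motifs found.
FN1: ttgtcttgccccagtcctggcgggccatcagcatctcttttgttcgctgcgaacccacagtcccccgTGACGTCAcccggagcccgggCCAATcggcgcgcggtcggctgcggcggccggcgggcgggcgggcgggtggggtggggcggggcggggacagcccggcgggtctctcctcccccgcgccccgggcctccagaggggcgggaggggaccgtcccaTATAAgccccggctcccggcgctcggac
VIM: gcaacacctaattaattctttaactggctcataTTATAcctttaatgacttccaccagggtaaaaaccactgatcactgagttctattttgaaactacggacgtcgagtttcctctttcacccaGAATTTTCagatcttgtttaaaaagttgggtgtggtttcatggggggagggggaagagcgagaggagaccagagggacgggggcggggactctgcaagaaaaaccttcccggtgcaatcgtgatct

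Both strands were searched for 7 motifs, which did not overlap each other in these 2 sequences. The FN1 window held TGACGTCA, the cyclic AMP response element, which 1.65% of all 35116 promoter windows hold, and the CCAAT box (32.0% of windows). It also held TATAA from 28 to 24 bases before the start (18.9% of windows). The VIM window held GAATTTTC, a match to GAANNTTC, the inverted pair of GAA units bound by heat shock factors (5.78% of windows), and TATAA on the other strand. Neither window held CACCTG, the E-box of SNAI and ZEB factors (17.5% of windows), TTCNNGAA (6.62%) or the AP-1 motif TGANTCA (6.57%). In ZEB1, which has 7 listed start sites, windows number 1 and 3 held that E-box. A match is a description of letters and not of binding.

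SNAI1, the SNAIL-family repressor of CDH1, was above the floor on the 44 °C arrays and below it on all other arrays. Its intensity was 132.5, 214 and 331 at 0, 6 and 12 h after 44 °C, against 8.62, 4.34 and 2.56 after 42 °C and 2.92 in the control. The 44 °C values do not overlap the other arrays, and the highest was at 12 h under each of the 3 scalings. Against the control, SNAI1 rose at least 6.21-fold at 0 h, at least 10.0-fold at 6 h and at least 15.5-fold at 12 h as deposited. In log2 units these lower bounds were 2.63, 3.32 and 3.95. They came to 2.24, 3.52 and 4.42 quantile-normalized and 2.23, 3.40 and 4.30 median-shifted, so the 0 h bound was lower under both other scalings. The same bounds hold against the 42 °C array of each time, because all of those are below the floor.

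Within the 44 °C series, SNAI1 at 6 h was 1.61-fold the value at 0 h as deposited, a log2 difference of 0.69. It came to 1.27 log2 units quantile-normalized and 1.16 median-shifted, so this step passed 2-fold under those scalings only. From 12 h over 6 h the log2 difference was 0.63 as deposited and 0.91 under both other scalings. A single probe set reads SNAI1, so its values have no second probe set as a check.

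**Figure D1:**
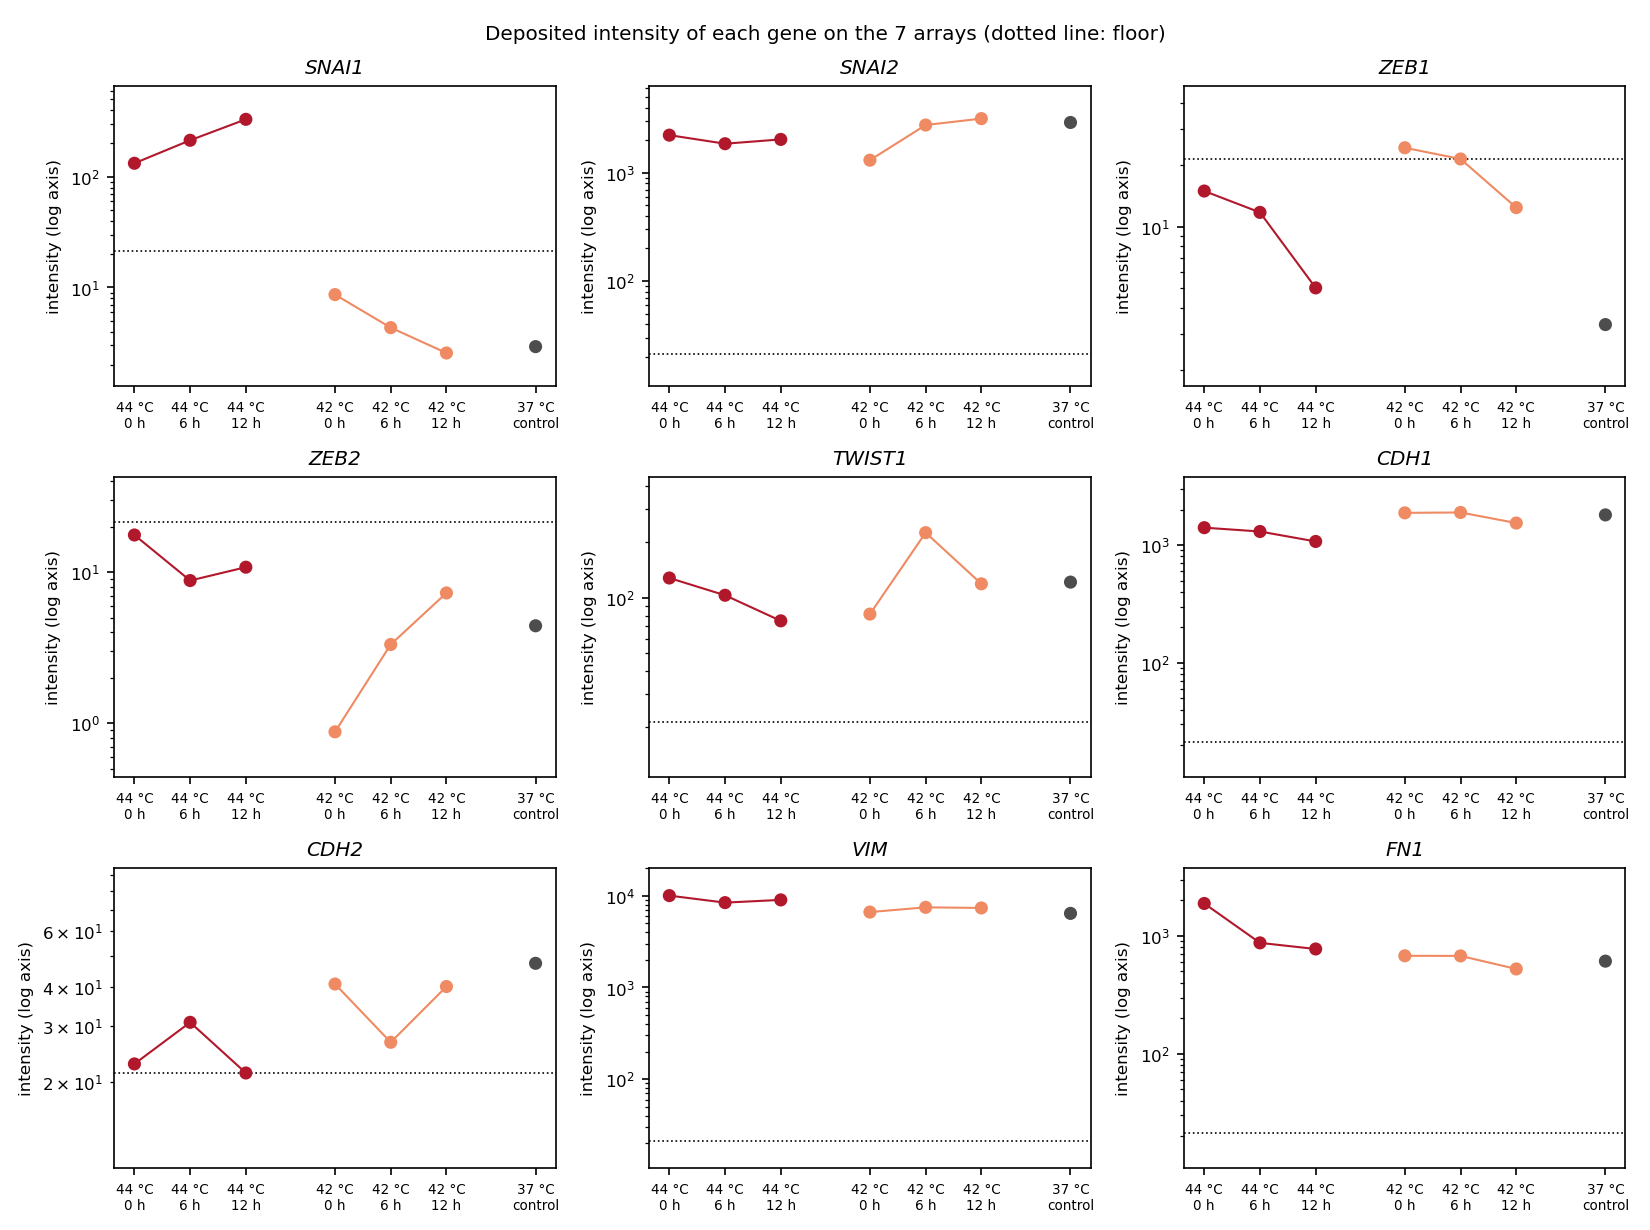
Deposited intensity (log axis) of the 9 genes on the 7 arrays, with the 44 °C arrays left, the 42 °C arrays in the middle and the control right; points are single arrays, lines join the times of 1 temperature and the dotted line is the floor of 21.35. SNAI1 lies above the floor on the 44 °C arrays only (132.5 to 331), and FN1 is highest at 44 °C, 0 h (1885).

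SNAI2, the SNAIL-family factor also called Slug, fell at the end of heating at 42 °C. Its intensity was 1306, 2757 and 3159 at 0, 6 and 12 h after 42 °C, against 2911 in the control. The 0 h array is the low one, and the 6 h and 12 h arrays lie to either side of the control as deposited. Under the other scalings both lie below it, by log2 differences of -0.37 and -0.14 quantile-normalized and -0.32 and -0.04 median-shifted. The fall at 0 h was 2.23-fold (log2 difference -1.16 as deposited, -1.13 quantile-normalized and -1.02 median-shifted). At 42 °C, 6 h SNAI2 was 2.11-fold the value at 0 h as deposited, but 0.76 and 0.70 log2 units above it under the other scalings, short of 2-fold.

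After 44 °C, SNAI2 read 2223, 1853 and 2030.4 at 0, 6 and 12 h, each below the control value of 2911. The log2 differences were -0.39, -0.65 and -0.52 as deposited, and none passed 2-fold under any scaling. SNAI1 and SNAI2, which belong to one family and share the E-box motif, therefore stood on opposite sides of the control at 44 °C at each time.

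The ZEB factors were near or below the floor. ZEB1, a zinc finger and homeobox repressor of CDH1, read 14.9, 11.7 and 5.03 after 44 °C and 24.2, 21.4 and 12.4 after 42 °C, against 3.33 in the control. As deposited it passed the floor only at 42 °C, 0 h, by 1.13-fold, and at 42 °C, 6 h by less than 1%. At 42 °C, 0 h it was 0.42 log2 units above the floor quantile-normalized and 0.32 median-shifted. Its other 3 probe sets stayed below the floor on every array as deposited. ZEB2, its paralogue, was read by 5 probe sets. All of them stayed under the floor on all 7 arrays, with values up to 17.6. No fold is given for it.

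TWIST1, a basic helix-loop-helix factor that represses CDH1, was highest 6 h after 42 °C. Its intensity was 128, 103 and 75.0 at 0, 6 and 12 h after 44 °C, 81.5, 225 and 119 after 42 °C, and 121 in the control. The 42 °C, 6 h array is the high one, and the others lie on both sides of the control as deposited. Under both other scalings all other heated arrays lie below the control. At 42 °C, 6 h the difference from the control was 0.89 log2 units as deposited and 0.63 and 0.65 under the other scalings, so TWIST1 did not pass 2-fold against the control on any array. From 42 °C, 6 h over 0 h it was 1.46 as deposited, 0.998 quantile-normalized and 1.09 median-shifted, which missed the rule by the second value alone. At 44 °C over 42 °C, 6 h the difference was -1.12 as deposited, but -0.68 and -0.81 under the other scalings.

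CDH1, E-cadherin, was lower on all 44 °C arrays than in the control, with no difference past 2-fold by its brightest probe set. It read 1405, 1304 and 1073 at 0, 6 and 12 h after 44 °C, 1878, 1892 and 1538 after 42 °C, and 1804 in the control. By this probe set the 44 °C values do not overlap the 42 °C values or the control. Against the control, the log2 differences after 44 °C were -0.36, -0.47 and -0.75 as deposited, -0.78, -0.53 and -0.53 quantile-normalized, and -0.76, -0.40 and -0.40 median-shifted. The trend towards 12 h in the deposited values is therefore absent under the other scalings, where the 0 h array is the lowest.

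Against 42 °C of the same time, CDH1 at 44 °C differed by -0.42, -0.54 and -0.52 log2 units at 0, 6 and 12 h. At 12 h this came to -0.03 quantile-normalized and -0.01 median-shifted. The dimmer CDH1 probe set read 113, 151 and 59.4 after 44 °C, 119, 183 and 99.1 after 42 °C, and 164 in the control. At 44 °C, 12 h that probe set was 1.47 log2 units below the control and passed 2-fold under all scalings, unlike the brighter one.

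CDH2, N-cadherin, was dim, and its 2 probe sets went opposite ways. The brighter one read 22.8, 30.9 and 21.4 after 44 °C and 40.8, 26.7 and 40.0 after 42 °C, against 47.4 in the control. As deposited it was below the control on every heated array, but quantile-normalized it lay 0.04 log2 units above it at 42 °C, 0 h. At 44 °C, 0 h it fell 2.08-fold as deposited, to just above the floor. Quantile-normalized and median-shifted it lay below the floor there, at 15.5 and 17.3, so under those scalings the fall is a lower bound. The other probe set read 47.7, 25.0 and 27.3 after 44 °C and 30.5, 26.8 and 20.8 after 42 °C, against 15.1 in the control. At 44 °C, 0 h it lay at least 1.16 log2 units above the control, and the mean of both probe sets was 0.17 above it. The fall of CDH2 thus rests on 1 probe set near the floor.

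FN1, fibronectin, an extracellular matrix protein that binds integrins, rose at the end of heating at 44 °C. Its intensity was 1885, 873 and 775 at 0, 6 and 12 h after 44 °C and 678, 677 and 524 after 42 °C, against 611 in the control. By this brightest probe set the 44 °C values do not overlap the 42 °C values or the control, and the 0 h array stands far above the rest. The rise at 44 °C, 0 h was 3.09-fold (1.63 log2 units, and 1.23 under both other scalings), on an array whose overall level was 0.40 log2 units above the control. At 6 h and 12 h after 44 °C the difference from the control was 0.52 and 0.34 log2 units as deposited, 0.54 and 0.65 quantile-normalized, and 0.59 and 0.69 median-shifted.

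The size of the FN1 rise depended on the probe set. The 4 bright FN1 probe sets (mean of at least 4 times the floor) were 2.38-fold to 3.09-fold above the control at 44 °C, 0 h, and all 4 passed 2-fold as deposited. Quantile-normalized, 3 of them passed, and median-shifted, 2 did, with log2 differences of 0.85 to 1.23. The least bright of these 4 read 556 at 44 °C, 12 h, below its 596 and 635 at 42 °C, 0 h and 6 h, so there the temperatures overlap. A dimmer FN1 probe set read 53.9 at 44 °C, 0 h against 61.4 in the control, a difference of -0.19 log2 units. The remaining 2 were below the floor on every array. The summed intensity of the 8 fibroblast markers with a probe set was 423 on this array, 329 to 423 over the 44 °C arrays and 247 to 318 over the 42 °C arrays, against 217 in the control, most of it COL1A1. The 5 leukocyte markers summed to 111 to 137 at 44 °C and 61.6 to 100.4 at 42 °C, against 46.8 in the control, where CSF1R alone was above the floor. The 5 endothelial markers summed to 48.4 to 85.1 at 44 °C and 53.4 to 70.4 at 42 °C, against 64.9 in the control. All these sums are of deposited values and include values below the floor, which have no reliable order, so no change in leukocyte markers is read from them. The part of any of these lists in the FN1 result was not tested.

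Against 42 °C, FN1 at 44 °C was 2.78-fold higher at 0 h as deposited, with 0.98 and 0.94 log2 units under the other scalings. At 12 h the order of the scalings turned, with 0.56 as deposited and 1.12 and 1.07 under the others. FN1 therefore passed 2-fold between the temperatures at 0 h and at 12 h under some scalings and not under all.

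VIM, vimentin, the intermediate filament protein of mesenchymal cells, was bright on every array. It read 10036, 8414 and 9014 after 44 °C and 6638, 7477 and 7362 after 42 °C, against 6423 in the control. Every heated array lay above the control as deposited, and the 44 °C values do not overlap the others. The differences from the control after 44 °C were 0.64, 0.39 and 0.49 log2 units as deposited and 0.20, 0.17 and 0.37 quantile-normalized. Median-shifted they were 0.24, 0.46 and 0.84, and none passed 2-fold. The dim second VIM probe set read 69.9, 47.5 and 49.6 after 44 °C and 23.5, 8.38 and 13.5 after 42 °C, against 28.3 in the control. It rose at 44 °C over 42 °C at 6 h and 12 h, by at least 1.15 and 1.21 log2 units, where the bright probe set differed by 0.17 and 0.29.

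**Figure D2:**
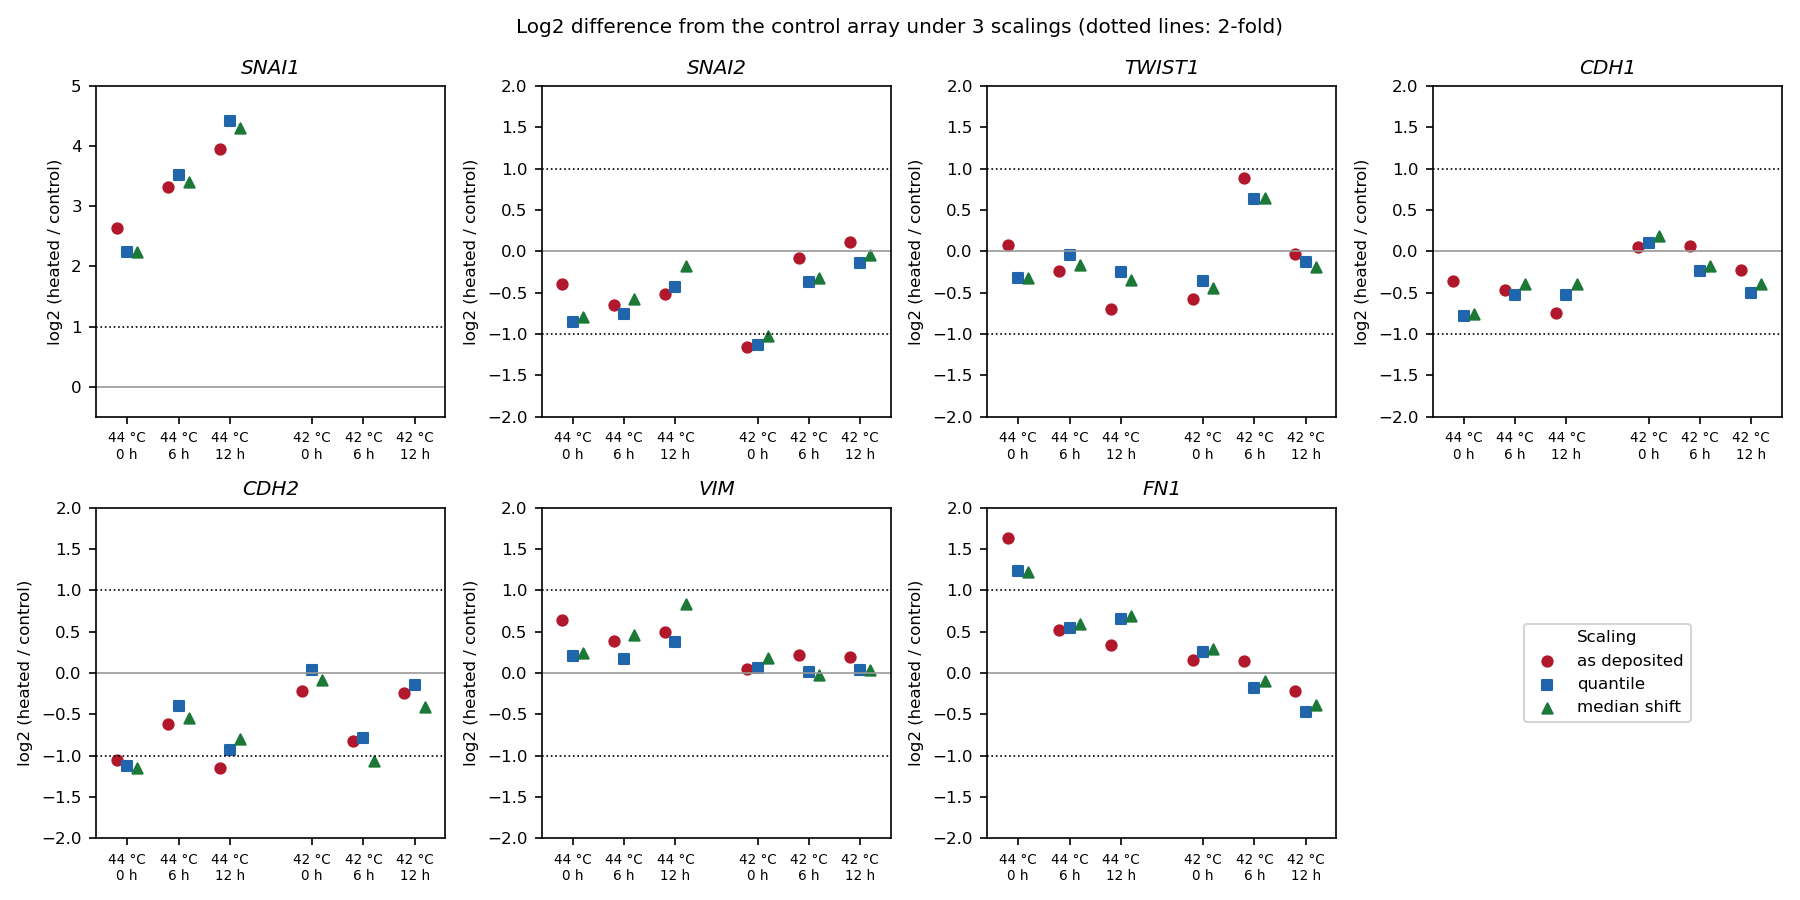
Log2 difference of each heated array from the control for the 7 genes other than ZEB1 and ZEB2, for each of the 3 scalings; dotted lines mark 2-fold, SNAI1 has its own axis range, and its points are lower bounds with the 42 °C arrays left out because they and the control lie below the floor. SNAI1 at 44 °C, FN1 and CDH2 at 44 °C, 0 h and SNAI2 at 42 °C, 0 h are past 2-fold under all 3 scalings.

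**Figure D3:**
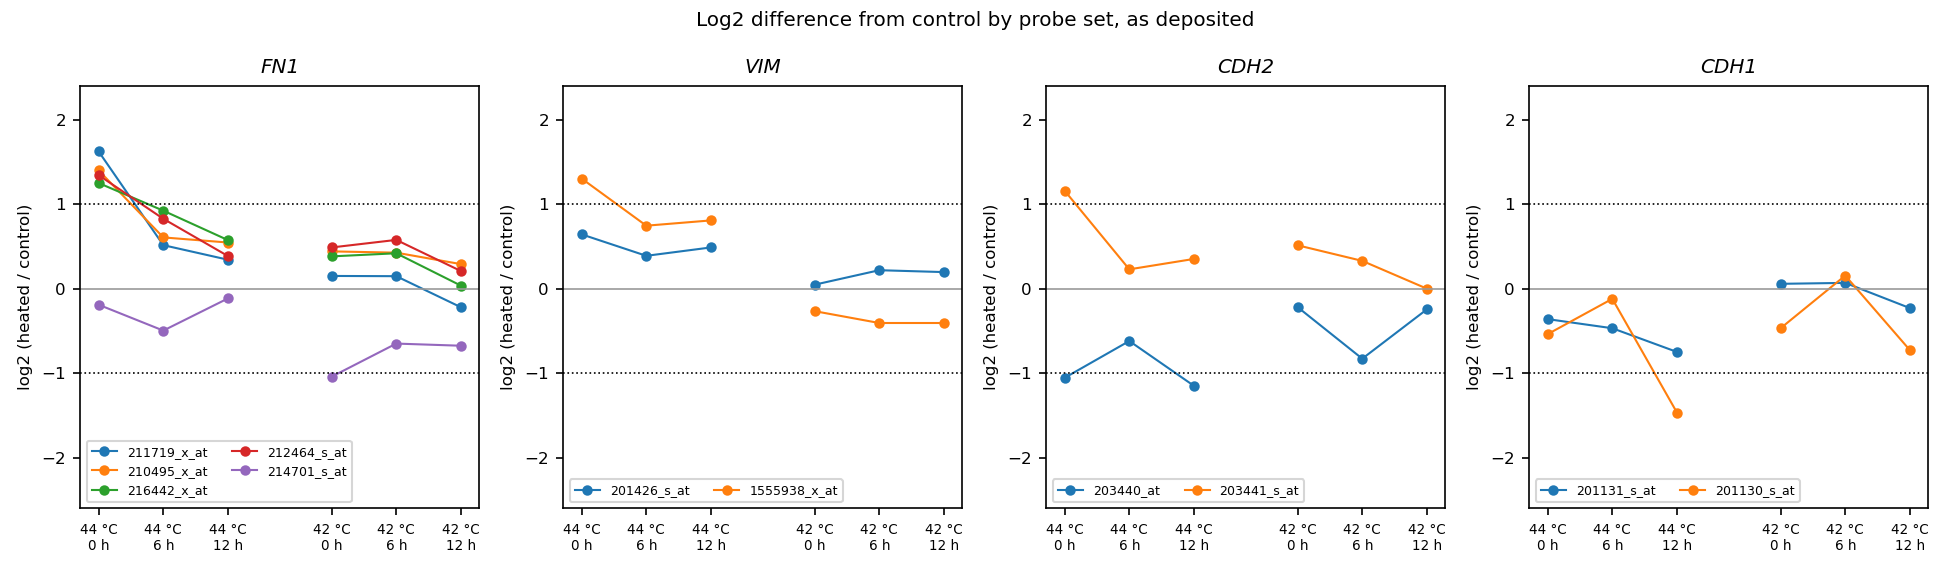
Log2 difference from the control as deposited for every probe set of FN1, VIM, CDH2 and CDH1 that reached the floor on any array (values below the floor set to it); lines join the times of 1 temperature. The 4 bright FN1 probe sets move together at 44 °C, 0 h (1.25 to 1.63), while the 2 CDH2 probe sets lie on opposite sides of 0 there (-1.06 and 1.16).

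By comparison, 2 of the 9 genes rose (SNAI1 and FN1) and 1 fell (CDH2) at 44 °C, 0 h, where 2.18% of the 15029 genes that reached the floor on any array rose and 0.725% fell. Of the 9, 8 are among the 15029, as ZEB2 never reached the floor. ZEB1, at no more than 24.2, stayed below 2 times the floor, so neither ZEB gene could be called in any comparison. At 44 °C, 6 h and 12 h SNAI1 alone rose, against 1.54% and 1.74% of all genes. At 42 °C, 0 h SNAI2 alone fell, against 3.21% of all genes. At 42 °C, 6 h and 12 h none of the 9 passed in either direction, against 3.55% and 2.44% of all genes. For 44 °C over 42 °C, SNAI1 alone rose at each of 0, 6 and 12 h, against 3.01%, 1.72% and 1.83% of all genes, and none fell. These comparisons share arrays and are not independent of each other. For SNAI1, CDH1, FN1 and VIM the 44 °C values of the brightest probe set did not overlap the other arrays. The share of all genes that separate in this way was not counted, so nothing is read from it.

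Between successive times none of the 9 passed in either direction, where ZEB1 and ZEB2 again could not be called, nor SNAI1 at 42 °C. The share of all genes that did was 1.56% at 44 °C, 6 h over 0 h, 1.90% at 44 °C, 12 h over 6 h, 4.82% at 42 °C, 6 h over 0 h, and 1.93% at 42 °C, 12 h over 6 h.

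As a group the 9 genes did not move one way. At 44 °C, 0 h the median log2 difference of the 7 that could be compared was 0.07, against 0.43 for the 14084 genes that could be compared. At 44 °C, 6 h it was -0.24, against -0.04, and at 12 h -0.52, against -0.26. At 42 °C it was 0.05, 0.07 and -0.13 at 0, 6 and 12 h, against -0.13, 0.20 and 0.16, with 6 of the 9 compared at 12 h. As deposited, the median of these genes thus lay above that of all genes only at 42 °C, 0 h. As a scale for these values, the 2 brightest probe sets of the same gene, where both were bright, disagreed on a difference from the control by a median of 0.21 to 0.28 log2 units. On the 44 °C, 0 h array, 5% of such pairs disagreed by more than 1.05 log2 units, and on the 42 °C, 0 h array by more than 0.87.

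The other genes of the pathway were read by lists, whose counts run over several arrays. Of the 15029 genes that reached the floor, 5.66% rose and 8.04% fell against the control on at least 1 heated array, and 13.5% did either. At 44 °C over 42 °C, 5.50% rose and 7.33% fell at 1 time or more, and 12.4% did either. In lists of 3 to 12 genes, such shares come to 0 to 2 genes, and nothing is read from a list's count beyond the genes named.

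Among regulators of the epithelial state, with 9 of 10 genes measured, OVOL1 and ELF3 rose (2 of 9) and GRHL1 fell (1 of 9) against the control on at least 1 heated array. OVOL1, a zinc finger repressor that maintains epithelial identity, read 252, 427 and 519 after 44 °C and 265, 98.4 and 166 after 42 °C, against 105 in the control. It rose 4.07-fold and 4.94-fold at 6 h and 12 h after 44 °C and 2.53-fold at 0 h after 42 °C. ELF3, an epithelial ETS factor, read 193, 92.8 and 78.1 after 44 °C, was below the floor on all 42 °C arrays, and read 42.8 in the control. It rose 4.50-fold at 44 °C, 0 h and 2.17-fold at 6 h. SNAI1, a repressor of epithelial genes, and OVOL1 were thus both highest on the 44 °C, 12 h array. GRHL1, a grainyhead factor named after its values were seen, was dim and fell 2.35-fold at 44 °C, 0 h.

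In TGF-beta and SMAD signalling, a known inducer of SNAI1 in epithelial cells, none of 11 measured genes rose against the control and 3 fell on at least 1 heated array, where 8.04% of all genes fell. TGFBR1, the type I receptor, read 1155, 749.9 and 542 after 44 °C and 1267, 1487 and 1478 after 42 °C, against 1563 in the control, and fell 2.88-fold at 44 °C, 12 h. TGIF1, a SMAD corepressor, fell 2.30-fold at 44 °C, 6 h and 2.76-fold at 42 °C, 0 h. The ligand TGFB2 fell 2.46-fold at 44 °C, 6 h. Another ligand, TGFB1, named after its values were seen, went the other way without passing the rule. It read 621, 371 and 338 at 0, 6 and 12 h after 44 °C and 266, 297 and 253 after 42 °C, against 242 in the control. SKIL, a SMAD corepressor named after its values were seen, fell 2.86-fold at 44 °C over 42 °C, 6 h. The median log2 difference of the list from the control was 0.01, -0.36 and -0.65 at 0, 6 and 12 h after 44 °C, against 0.38, 0 and -0.16 for the 15029 genes. After 42 °C it was -0.24, 0.30 and 0.43, against -0.07, 0.12 and 0.09. At 44 °C, 12 h the median of SNAI1 protein turnover genes was -0.82 and that of tight junctions and desmosomes -0.62, so the TGF-beta list was not the lowest there.

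None of the 8 measured adherens junction partners of E-cadherin passed against the control on any heated array, and none of 3 other cadherins. The cadherins CDH6 and CDH11, with highest values of 30.7 and 28.8, and the partner NECTIN3 stayed below 2 times the floor. The rule could therefore not have called these genes. CDH3 was above the floor on every array. Of 12 genes of tight junctions and desmosomes, OCLN alone passed. With 13.5% of all genes passing on at least 1 heated array, these counts do not set junction genes apart from other genes. OCLN, the tight junction protein occludin, read 149, 107 and 175 after 44 °C and 369, 400 and 319.6 after 42 °C, against 273 in the control. It fell 2.56-fold at 44 °C, 6 h, and at 44 °C over 42 °C it fell 2.48-fold at 0 h and 3.75-fold at 6 h.

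Among 11 mesenchymal structural and matrix genes, COL1A1 and S100A4 rose and TAGLN fell against the control on at least 1 heated array, next to shares of 5.66% and 8.04% of all genes. COL1A1, a chain of type I collagen, read 304, 307 and 273 after 44 °C and 249, 204 and 222 after 42 °C, against 139 in the control, and rose 2.20-fold at 44 °C, 6 h. S100A4 and TAGLN, named after their values were seen, stayed dim, at no more than 58.9. At 44 °C over 42 °C, TAGLN rose 2.32-fold at 6 h, and S100A4 fell at least 2.61-fold at 12 h. Of 5 fibronectin receptor genes, ITGAV, the integrin alpha V chain, read 972, 716 and 464 after 44 °C and 1542, 1501 and 1415 after 42 °C, against 1198 in the control. It fell 2.58-fold at 44 °C, 12 h and 3.05-fold at 44 °C over 42 °C, 12 h. None of 7 other EMT transcription factors passed in any of these comparisons. SNAI3, TWIST2, PRRX1 and TCF4 stayed below 2 times the floor on every array, with highest values of 26.1, 41.2, 30.6 and 36.4. The rule could therefore not have called them, and nothing is read from that result for them. FOXC2, TCF3 and HMGA2 lay above the floor on every array. Of 6 genes of SNAI1 protein turnover, FBXL5, an F-box protein of ubiquitin ligases, fell 2.53-fold at 42 °C, 0 h against the control, and no other passed against the control. FBXO11, another F-box protein, named after its values were seen, fell 2.98-fold at 44 °C over 42 °C, 6 h.

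The genes with the most similar pattern were taken by Pearson r over the 7 arrays, on quantile-normalized and floored log2 values, among 3335 other genes with a bright value and a range of at least 1 log2 unit. For SNAI1 they were RGS16 (r = 0.999), a regulator of G protein signalling, FOSB (0.998), an AP-1 subunit, and ZNF595 (0.984). All of these were below the floor on the 42 °C arrays and the control, so r reflects the contrast between 4 arrays tied at the floor and the 3 arrays at 44 °C, and 108 genes had r over 0.9 with SNAI1. FOSB read 141, 226 and 266 after 44 °C, against 3.90 in the control. For SNAI2 they were ASH1L-AS1 (0.965), RAP2B (0.964), a small GTPase, and the chemokine CXCL2 (0.962), and 16 genes had r over 0.9. RAP2B read 778 at 42 °C, 0 h, against 1803 in the control. For FN1 they were MED15 (0.983), EMD (0.980) and MLLT6 (0.976), and 108 genes had r over 0.9. With 7 arrays and this many candidates, such values describe shape only.

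**Figure D4:**
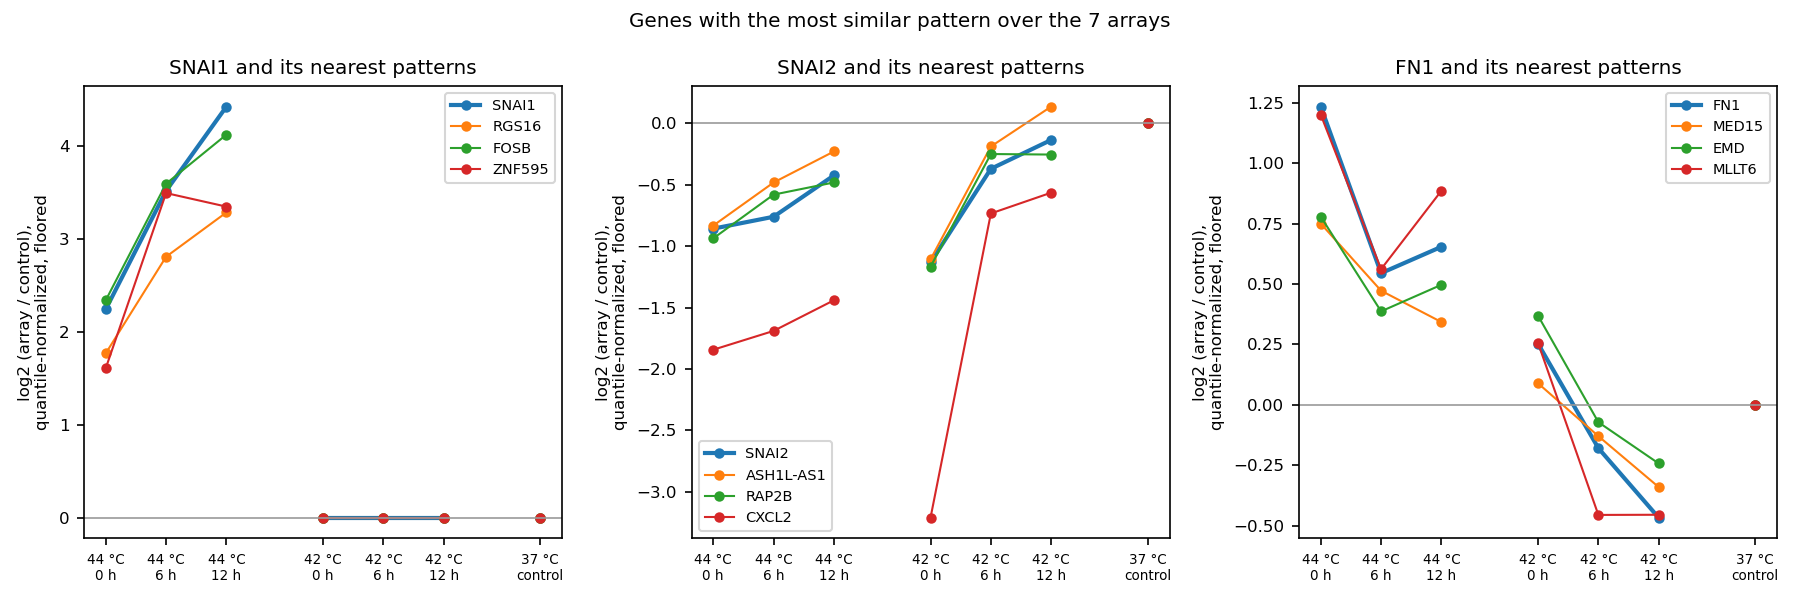
Log2 difference of each array from the control, on quantile-normalized and floored values, for SNAI1, SNAI2 and FN1 (thick lines) and the 3 genes most like each; lines join the times of 1 temperature. RGS16, FOSB and ZNF595 lie at 0 with SNAI1 on the 42 °C arrays, where all 4 are at the floor.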

How the data were processed

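The authors' deposited values are probe set intensities on a linear scale, 1 table of 54675 probe sets for 7 arrays of HSC-3 cells; each array received label made from 5 µg of total RNA, per the labels. How probes were summarised to intensities is not stated in any source used. All 7 columns were used, with 0 from other samples. The 9 genes, the lists and the rules were chosen with earlier results of these data known, and the comparisons between successive times and the promoter motifs after seeing the data.

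Probe sets were named from the array's annotation, updated by gene ID to GRCh38.p14 symbols: 41097 listed 1 gene, 1801 several and 11777 were not listed. Of the probe sets that list 1 gene, the brightest on average stands for it. Values were scaled, floored at 21.35 and log2-transformed. The median shift used the 20902 probe sets with no value under the floor. The call needs 1 log2 unit under all 3 scalings. A gene with no deposited value of at least 2 times the floor can therefore not be called. With 1 array per condition no test was made, and the number of arrays limits the precision. List genes named were up to 3 per list, past 2-fold from the control with the higher value at least 4 times the floor. Alternatives were single scalings, a floor 2 times as high, no floor, the mean of probe sets, other probe sets and a 1.5-fold threshold. The code, in Python 3.11.15 with pandas 2.3.3 and numpy 2.4.6, was tested on simulated data.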

Additional observations from a re-analysis of the deposited data

How the results depend on the processing

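The number of the 9 genes past 2-fold moved by more than 1.5 times in these settings. Without a floor it was 5 at 44 °C, 0 h (3 with the floor), 2 at 44 °C, 6 h and 2 at 12 h (1 each with the floor), 4 at 42 °C, 0 h (1), 1 at 42 °C, 6 h and 1 at 12 h (0 each), and 2 for 44 °C over 42 °C at 0 h and 2 at 6 h (1 each). SNAI1, ZEB1 and ZEB2, below the floor, made these additions. As deposited alone it was 2 at 44 °C, 12 h (CDH2 added), and 2 for 44 °C over 42 °C at 0 h (FN1) and at 6 h (TWIST1). After quantile normalization alone it was 2 for 44 °C over 42 °C at 0 h (CDH2) and at 12 h (FN1). After the median shift alone it was 2 in the same comparisons with the same genes, and 1 at 42 °C, 6 h (CDH2). With the mean of probe sets it was 1 at 44 °C, 0 h, where FN1 and CDH2 no longer passed. At 1.5-fold it was 2 at 44 °C, 12 h, 2 at 42 °C, 6 h, and for 44 °C over 42 °C 3 at 0 h and 2 at 6 h. With the floor doubled CDH2 at 44 °C, 0 h was lost. The cause was not tested beyond what each setting changes by construction.

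For single genes, 59 of 619 recomputed differences had the opposite sign to the reported value, 54 of them with both values within 2-fold. Of the genes called as risen or fallen, 3 differences changed sign, all at 44 °C, 0 h against the control: CDH2 with the mean of probe sets (0.17 log2 units) and with its other probe set (1.16), and FN1 with a dim probe set (-0.19). The other 2 sign changes with a value past 2-fold were that FN1 probe set at 42 °C, 0 h (-1.04, against 0.15) and the second CDH2 probe set at 44 °C, 12 h (0.35, against -1.15). By the call, which needs all 3 scalings except where a setting is 1 scaling alone, 592 were unchanged, 20 were gained and 4 lost, beside those 3. The SNAI1 rises at 44 °C and the SNAI2 fall at 42 °C, 0 h held under every setting run. Most settings could not have changed these calls. The call already needs all 3 scalings, a 1.5-fold threshold is easier to pass, and each of these genes is read by 1 probe set. SNAI2 also lies far above either floor, so for SNAI2 the settings are no check. Values near 21.35 have no reliable order. No paired analysis was possible because each condition has 1 array.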
